A study of Mus musculus with 108 samples.

Results

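Distal sites that scored as reporter-positive in the hemogenic endothelium and at no other stage are described here. The sites were chosen by the positive lists themselves: distal fragments that overlapped, from any of the 95 sorted libraries, were joined into sites, and a site was kept if YFP-positive cells held a fragment of it in 2 or more of the 10 HE1 and HE2 sets and in none of the 15 ES, HB and HP sets. A set is here the union of the Low, Medium and High lists of 1 stage and replicate. The rule found 7702 members among 58916 distal sites (13.1%), which are regions of 70 to 1597 bp with a median width of 339 bp, against 297 bp over all sites.

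In the screen, HM-1 mouse ES cells received open chromatin fragments cut out by the Tn5 transposase, each placed at Hprt before a minimal HSP68 promoter and a Venus-YFP gene. Cells were taken undifferentiated (ES) and after in vitro differentiation as FLK1-positive hemangioblasts (HB), as early and later hemogenic endothelium (HE1 and HE2) and as hematopoietic progenitors (HP). They were sorted by YFP as Negative, Low, Medium and High in replicates 1 to 4, and as Negative, Low and Medium/High in replicate 5. All groups were of the same parental line and carried the same reporter cassette, and nothing in the labels tied the 5 replicates to separate transfections, so spreads between replicates may be partly technical. The lists hold DNA fragments and no expression values, and the identity of the sorted cells could not be checked against marker genes.

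Hemogenic endothelium is the endothelium from which the first definitive blood cells bud, through a transition driven by RUNX1. Its cells still use the ETS and SoxF factors and the Notch, VEGF and BMP pathways of blood vessels, and AP-1 and the TEAD factors of the Hippo pathway are known to bind regulatory elements of these cells. An enhancer used at this stage therefore often carries ETS, SOX, GATA, AP-1 or TEAD motifs, whereas RUNX and PU.1-type ETS motifs are typical of blood cells.

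As examples, 5 windows of 300 bp around the midpoint of a named member and 1 cloned insert are printed from the plus strand of the mm10 (GRCm38) genome. They are not a random draw from the members. In the windows, capitals mark matches on either strand to 6 short motifs. The motif of ETS factors was searched as the letters GGAAGT and that of RUNX factors as TGTGGT. The letters AGATAA stood for GATA factors, and the palindromic TGANTCA stood for AP-1. The TEAD motif was searched as GGAATG and the SOX motif as ACAATG. The Egfl7 window, chr2:26576029-26576328, lies in intergenic sequence beside a gene for a secreted endothelial protein and holds 2 RUNX and 1 SOX match. The Cttnbp2nl window, chr3:105054921-105055220, is intergenic and holds 2 AP-1, 1 ETS and 1 SOX match. The windows chr9:32674161-32674460 and chr9:32749718-32750017 lie in introns of Ets1, an ETS factor of endothelium and blood. The first of them holds ETS, SOX, GATA and RUNX letters, and the other holds 2 AP-1 matches and a SOX match. The Id3 window, chr4:136120148-136120447, is intergenic near a gene that responds to BMP signalling and holds AP-1, ETS and 2 TEAD matches. The insert at Maml2, chr9:13575210-13575439, is a fragment of 230 bp in an intron of a gene for a Notch co-activator. It is shown because the identical piece was recovered from 6 HE sets with 4 replicate numbers, and it holds none of these letters. At least 3 of the 6 motifs were in the windows of 17.4% of members with 2 sets and 21.1% with 4 or more. None of the 6 were in 17.9% and 13.7%.
Egfl7: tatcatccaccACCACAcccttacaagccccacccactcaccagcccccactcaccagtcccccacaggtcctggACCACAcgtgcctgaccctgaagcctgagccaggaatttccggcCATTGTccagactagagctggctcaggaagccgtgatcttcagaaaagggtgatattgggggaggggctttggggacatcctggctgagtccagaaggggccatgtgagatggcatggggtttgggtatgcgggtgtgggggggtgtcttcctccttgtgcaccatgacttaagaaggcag
Cttnbp2nl: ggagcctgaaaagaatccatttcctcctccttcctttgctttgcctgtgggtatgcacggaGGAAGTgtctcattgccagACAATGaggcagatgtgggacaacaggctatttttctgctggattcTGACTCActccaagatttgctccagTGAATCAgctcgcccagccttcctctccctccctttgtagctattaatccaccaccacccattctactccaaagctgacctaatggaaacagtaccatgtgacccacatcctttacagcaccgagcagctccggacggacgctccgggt
Ets1 first intronic member: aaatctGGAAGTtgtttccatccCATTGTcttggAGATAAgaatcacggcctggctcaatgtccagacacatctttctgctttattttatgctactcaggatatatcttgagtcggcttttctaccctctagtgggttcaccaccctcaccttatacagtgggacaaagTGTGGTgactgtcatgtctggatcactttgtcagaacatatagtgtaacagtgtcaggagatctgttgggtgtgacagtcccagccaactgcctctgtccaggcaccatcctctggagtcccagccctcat
Ets1 other intronic member: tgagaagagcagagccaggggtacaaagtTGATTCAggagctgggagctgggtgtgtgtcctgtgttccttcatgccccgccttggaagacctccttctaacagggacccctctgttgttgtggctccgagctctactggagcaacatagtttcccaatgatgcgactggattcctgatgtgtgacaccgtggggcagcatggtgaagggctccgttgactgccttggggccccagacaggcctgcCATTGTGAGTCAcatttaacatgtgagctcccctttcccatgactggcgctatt
Id3: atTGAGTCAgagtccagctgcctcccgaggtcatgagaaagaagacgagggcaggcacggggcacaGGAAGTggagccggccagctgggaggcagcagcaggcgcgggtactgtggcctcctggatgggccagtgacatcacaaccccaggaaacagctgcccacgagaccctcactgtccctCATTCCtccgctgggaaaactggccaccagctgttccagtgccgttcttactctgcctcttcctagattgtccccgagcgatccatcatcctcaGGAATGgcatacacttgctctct
Maml2 insert: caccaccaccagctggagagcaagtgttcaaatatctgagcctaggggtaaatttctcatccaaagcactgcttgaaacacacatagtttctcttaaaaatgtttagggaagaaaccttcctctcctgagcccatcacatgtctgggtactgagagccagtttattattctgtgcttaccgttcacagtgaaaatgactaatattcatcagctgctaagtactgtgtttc

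The depth of the lists set how many sites could score. A library listed between 126 and 45186 distinct distal fragments, with a median of 16055 in replicate 1 and 11798.5 in replicate 2, and of 517.5, 506 and 371 in replicates 3, 4 and 5. Pooled over gates and replicates, positive cells held 138714 distinct distal fragments in HE1 and 111309 in HE2, against 50392 in ES, 74501 in HB and 84003 in HP. Absence from the ES, HB and HP lists was thus read from shorter lists than presence in HE, and the part of this difference in the number of members was not tested. Sites positive in ES alone by the same rule (2 or more sets of that stage and none elsewhere) numbered 1196, those of HB alone 1357 and those of HP alone 768, while 6298 sites were positive at all 5 stages.

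Some HE1 libraries went against their labels as separate samples. The HE1 Negative library of replicate 1 and the HE1 Medium library of replicate 2 shared 31467 distal fragments, 78.9% of the smaller list, and HE1 Negative of replicate 3 and HE1 Low of replicate 4 shared 1223, or 80.8%. The next highest share of any pair of libraries was 55.5%. Without these 4 libraries the rule found 6535 members. All 32 members named below were among them, and the 12 members with the most sets had 6 to 8 sets without these libraries.

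Most members were seen in few sets. A positive fragment was present in exactly 2 HE sets at 3964 members (51.5%), in 3 sets at 1949, in 4 sets at 1418, in 5 sets at 319, in 6 sets at 42, and in 7 and 8 sets at 5 members each. No member was positive in 9 or 10 sets. The sites just inside the rule, with exactly 2 sets, had a median of 2 distinct positive fragments and a median width of 274 bp. Just outside it lay 8113 sites with 1 HE set and none elsewhere (median 1 fragment and 202 bp) and 3877 sites with 2 or more HE sets and 1 set of another stage (median 4 fragments and 427 bp). These counts describe the choice of the members.

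**Figure D1:**
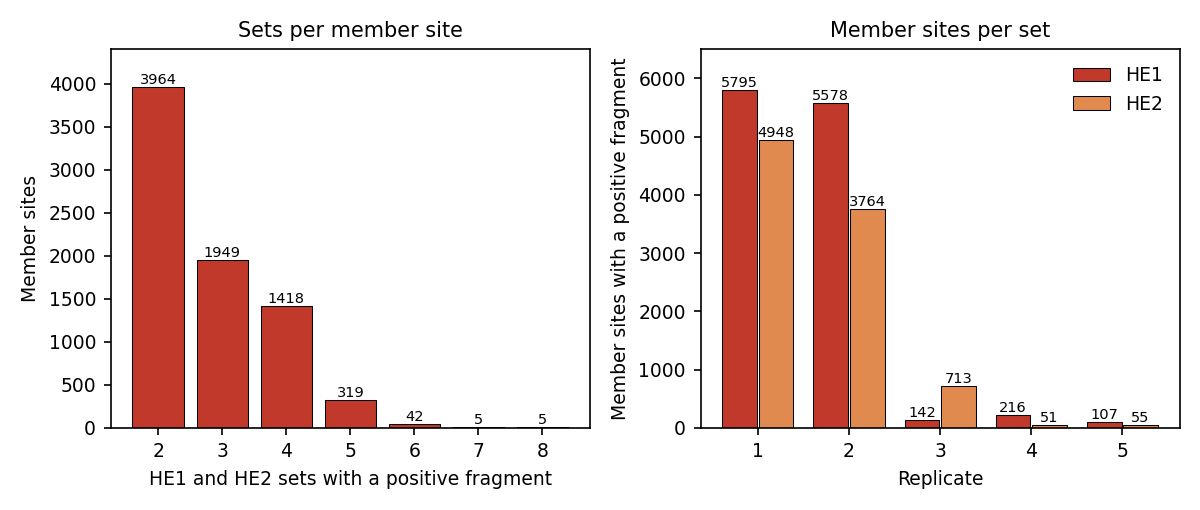
Left, number of member sites (vertical axis) by the number of HE1 and HE2 sets with a positive fragment (horizontal axis). Right, number of member sites with a positive fragment in each HE1 and HE2 set, by replicate. Bars are counts of sites: 3964 members rest on 2 sets, and the sets of replicates 1 and 2 hold 3764 to 5795 members each against 51 to 713 in replicates 3 to 5.

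The deep replicates carried the members. HE1 of replicate 1 held 5795 of them and HE1 of replicate 2 held 5578, and HE2 of the same replicates held 4948 and 3764. In replicates 3, 4 and 5, HE1 held 142, 216 and 107 members and HE2 held 713, 51 and 55. In all, 6541 members (84.9%) were positive in sets of replicates 1 and 2 alone, 1498 were positive in all 4 sets of these replicates, and 1161 were also or only seen in a shallower replicate. Without replicate 1 the rule found 4425 sites, 2830 of which were members with all replicates, and without replicate 2 it found 4219, with 3774 shared. Most members, 7083, had positive fragments under at least 2 replicate numbers.

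Members spanned both stages of the hemogenic endothelium more often than 1 of them. In all, 4946 members (64.2%) were positive in HE1 and in HE2, 1882 (24.4%) in HE1 sets alone and 874 (11.3%) in HE2 sets alone. The members held 31828 distinct positive fragments, with a median length of 174 bp against 187 bp for positive fragments of all distal sites. A member had a median of 3 distinct positive fragments and at most 57, and 785 members rested on 1 fragment. The identical fragment was found in 2 or more HE sets at 4023 members (52.2%), and under 2 or more replicate numbers at 3624 (47.1%). At the remaining 3679 members (47.8%) the sets shared no identical fragment. Of the positive fragments in members, 88.9% were identical to a fragment of a plasmid list, and 57 to a fragment amplified from HM-1 cells without a reporter library.

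The 12 members positive in the most HE sets differed widely in their numbers of fragments. A member 76784 bp from the nearest start, that of Mdm1, held 10, 13, 1 and 1 distinct positive fragments in HE1 of replicates 1 to 4, and 15, 8, 2 and 2 in HE2. An intronic member of Kcnh2, a potassium channel gene, lay 20117 bp from the start of Nos3, the endothelial nitric oxide synthase. It held between 1 and 4 fragments in the HE1 and HE2 sets of replicates 1 to 4. An intronic member of Etv6, an ETS repressor needed by blood stem cells, held 1 or 2 fragments in each of the same sets, and 5 distinct ones in all. At these 3 members each of the first 4 replicates was positive at both stages, and replicate 5 was at 0.

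An intronic member of Trak1, a gene for an adaptor of mitochondrial transport, and one of Maml2 were the other 2 with 8 sets. At Maml2, HE1 of replicates 2 to 5 and HE2 of replicates 1 to 4 were positive with only 3 distinct fragments, 1 of which is the printed insert. The member 110663 bp from Hif1a, a hypoxia-inducible transcription factor, was positive in 7 sets with 21 fragments, or 18 without the libraries that share fragments. Members nearest to Arglu1 and to Smad7, an inhibitor of TGF-beta signalling, were positive in 7 sets with 21 and 19 fragments, and one in an intron of Agbl4, nearest to the start of Spata6, in 7 sets with 12. The member in an intron of 1110051M20Rik, also with 7 sets, held a piece of 151 bp that was identical in all 7. That piece was also in 5 Negative libraries, in 1 of 10 plasmid lists and in 1 HM-1 control list.

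Members near Egfl7 and Cttnbp2nl were positive in fewer sets but held the most fragments of the 12. The Egfl7 member, 3836 bp from its start and within 100 kb of Notch1, held 14 and 23 distinct positive fragments in HE1 of replicates 1 and 2. It held 22 and 11 in HE2 of these replicates and 1 each in HE2 of replicates 3 and 4, in all 57 distinct fragments, or 43 without the HE1 Medium library of replicate 2. The Cttnbp2nl member, 1924 bp from its start, held 16 and 16 in HE1 of replicates 1 and 2, 18 and 9 in HE2, and 1 each in HE2 of replicates 3 and 5. Neither had a fragment in any ES, HB or HP library, Negative ones included.

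**Figure D2:**
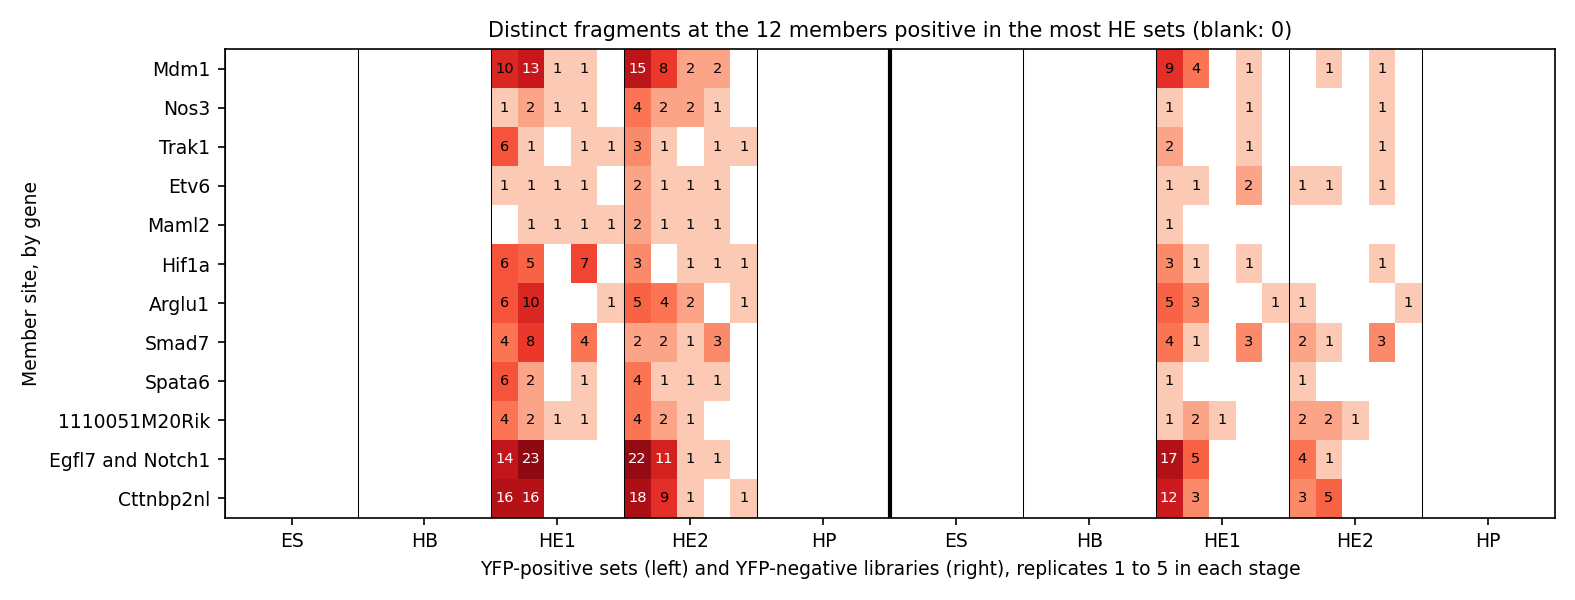
Numbers of distinct fragments (in the cells, darker for more) at the 12 members positive in the most HE sets (rows, by list gene or nearest gene) in the YFP-positive sets (left of the thick line) and the YFP-negative libraries (right), with replicates 1 to 5 of each stage from left to right. Blank cells are 0. The positive ES, HB and HP cells are blank by the rule, and the Negative ES, HB and HP libraries, which the rule did not use, are blank as well.

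The Negative lists did not decide which sites were kept, although their fragments were among those joined into sites. The HE1 Negative lists of replicates 1 and 3 also each shared most fragments with a positive list the rule used. Members were found in the Negative lists of the hemogenic endothelium and rarely in those of the other stages. Of the 7702 members, 4708 (61.1%) were listed in at least 1 HE1 Negative library and 2044 (26.5%) in an HE2 one, against 84 (1.09%) in ES, 63 (0.818%) in HB and 291 (3.78%) in HP. Over all 58916 sites the same shares were 36.8%, 23.4%, 17.6%, 19.6% and 21.8%. Without the HE1 Negative libraries of replicates 1 and 3, the HE1 share of members was 19.7% and that of all sites 15.5%.

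Taken per library, members made up 13.1% ± 6.41 (SD, n = 5) of the distal sites in an HE1 Negative list and 10.7% ± 3.07 (SD, n = 5) in an HE2 list. They made up 0.527% ± 0.397 in ES, 0.457% ± 0.0505 in HB and 1.40% ± 0.848 in HP (SD, n = 5 each). The lowest of the 10 HE1 and HE2 libraries, HE1 of replicate 3, stood at 5.37%, and the highest of the 15 others, HP of replicate 4, at 2.41%. The ranges did not overlap, in deep and in shallow replicates alike. Over all 58916 distal sites members made up 13.1%. The HE1 mean was thus near that share, the HE2 mean below it, and the means of the other stages far below it. Without HE1 of replicates 1 and 3 the HE1 mean was 12.8% ± 3.86 (SD, n = 3).

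**Figure D3:**
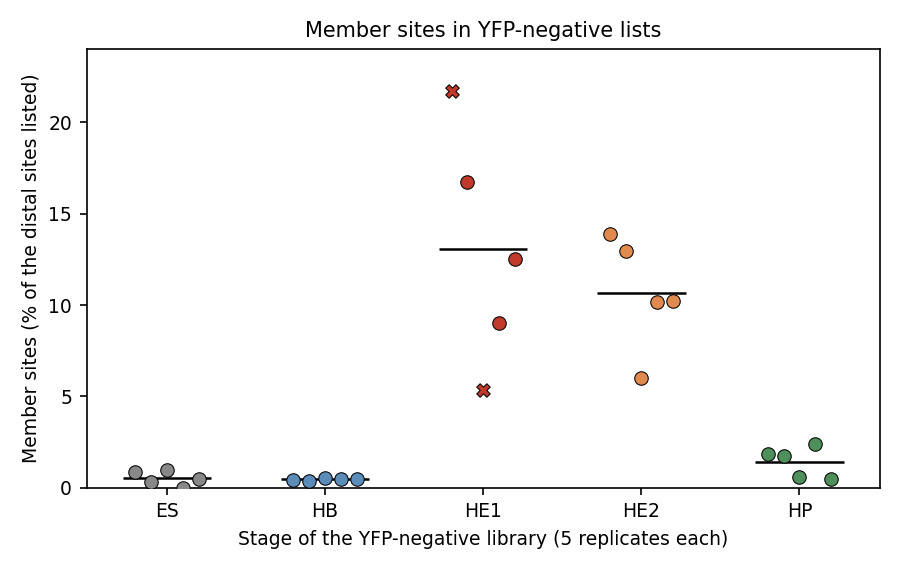
Share of the distal sites of each YFP-negative library that are members (vertical axis, %), by stage (horizontal axis). Points are the 5 replicates of a stage, in order from left to right, horizontal lines their means, and crosses the HE1 libraries of replicates 1 and 3 that share most of their fragments with another library. All 10 HE1 and HE2 libraries lie between 5.37% and 21.7%, and the 15 ES, HB and HP libraries between 0% and 2.41%. Members made up 13.1% of all distal sites.

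Sites chosen in the same way for other stages also kept to their stage in the Negative lists. Of the 1196 sites positive in ES alone, 39.2% were listed in an ES Negative library, 2.84% in HB and 0.585% in HE1 or HE2. Of the 768 sites positive in HP alone, 32.7% were listed in HP Negative libraries and 4.43% in HE1 or HE2. Of the positive fragments in members, 25.8% were also in an HE1 or HE2 Negative list as the identical fragment. The methods state that fragments were held against open chromatin peaks, but not whether each list was held against peaks of its own stage, and the part of such a filter in these shares was not tested.

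No single site passed the test of this difference. Limma compared the number of fragments of a site per 10000 of its list, with 1 added and on the log2 scale, between the 10 HE1 and HE2 Negative libraries and the 15 others at 9068 sites with a fragment in at least 4 libraries. It called 0 sites higher (0%) and 0 lower (0%) at an adjusted p of 0.05, with 328 sites at an unadjusted p under 0.05. With voom weights limma called 1 site, which was no member, and 544 sites were at an unadjusted p under 0.05. A total of 179 members passed the filter, and the lowest adjusted p among them was 0.809. As members lay almost only in HE lists, the filter could keep them only where HE was high, and no count or median over these 179 is given. Of the members, 2275 (29.5%) were in no Negative library, 5304 (68.9%) in an HE one and 423 (5.49%) in one of ES, HB or HP, against 43.3% and 39.3% of all sites in an HE list and in one of the others. Without the HE1 Negative libraries of replicates 1 and 3 the HE shares were 38.3% of members and 29.6% of all sites. Without replicate 1 altogether, 31.6% of members were in an HE list and 3.45% in one of the others.

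The positive gates were compared to ask whether members drove strong or weak YFP expression. Over the 10 HE sets, 61.5% ± 20.1 (SD, n = 10) of the positive listings at members came from the Medium, High or Medium/High gate and the rest from Low. The value over all distal sites of these sets was 60.2% ± 22.7 (SD, n = 10). The shares moved together from set to set: 75.1% and 76.8% in HE1 of replicate 1, 98.5% and 97.2% in HE2 of replicate 3, and 34.5% and 20.9% in HE1 of replicate 4, whose Low library is among those that share fragments. The difference between members and all sites was 1.39 ± 5.09 percentage points (SD, n = 10), with members higher in 7 of 10 sets. Without the HE1 sets of replicates 2 and 4 the means were 62.2% ± 18.6 and 62.3% ± 19.2 (SD, n = 8). Limma compared the union of the higher gates with the Low gate in 20 sets, with stage as a covariate, at 16356 sites. It called 0 higher (0%) and 0 lower (0%), with 256 sites at an unadjusted p under 0.05. With voom weights it called 0 in all, with 976 sites at an unadjusted p under 0.05. The direction depended on the fit. The voom fit changed the log2 values as well as the weights, and the parts of these changes were not tested apart. The median log2 difference was 0.004 for members and 0.009 for all sites in the main fit, and -0.580 and -0.398 in the voom fit. Of the members, 2918 entered this test, and their lowest adjusted p was 1.00.

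The plasmid lists give the amount of cloned chromatin at each site before any cell was transfected. For each stage 1 list came from pDONR, the entry vector, and 1 from pSKB, which carries the reporter, so there is no replicate error and no test. A fragment must have been cloned to score, but the stage from which it was cloned was not part of the rule. In the pDONR lists the median member had 1.50 CPM (counts per 1000000 reads) in the HE1 list and 1.10 in HE2, against 0.268 in ES, 0.223 in HB and 0.453 in HP. The medians over all sites were 0.842, 0.870, 0.714, 0.543 and 0.680 CPM in the same order of stages. The median member thus had its highest cloned levels in the HE1 and HE2 lists, while 76.4% of members also had reads in the ES list and 88.7% in the HP list.

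Of 7701 members with pDONR reads, 2283 (29.6%) had a mean CPM in HE1 and HE2 at least 2 times that in ES, HB and HP, with 1 added to both, and 57 (0.740%) were lower by as much. Over all 58874 sites with reads, 9.39% were at least 2-fold higher and 6.6% lower. With 0.25 added in place of 1 the higher shares were 55.2% of members and 19.8% of all sites, the median levels of members being 0.223 to 1.50 CPM. The median log2 ratio was 0.63 for members (quartiles 0.19 and 1.10) and 0.00 for all sites. It was -0.50 for sites positive in ES alone, -0.47 for HB alone, -0.09 for HP alone and -0.14 for sites positive at all 5 stages. With 1 added, the pSKB lists gave 2329 of 7571 members (30.8%) at least 2-fold higher and 463 (6.12%) lower, against 16% and 16.9% of 57143 sites. With 0.25 added, 48.2% of members and 24.6% of all sites were higher. Their median log2 ratio with 1 added was 0.41 for members and -0.04 for all sites.

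**Figure D4:**
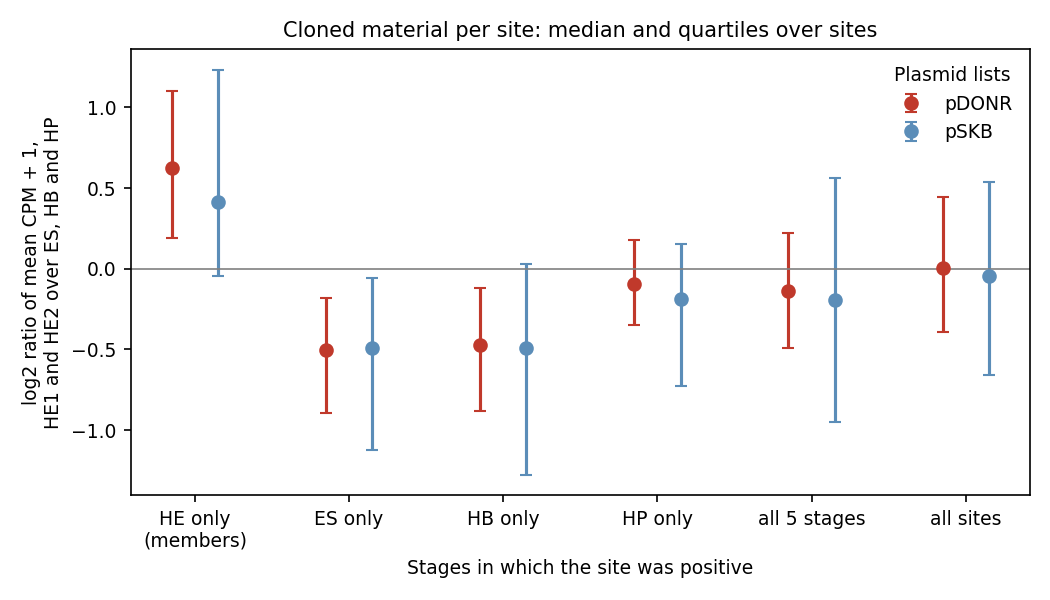
Log2 ratio of the mean CPM with 1 added of the HE1 and HE2 plasmid lists over that of the ES, HB and HP lists (vertical axis), for sites grouped by the stages in which they were positive (horizontal axis), in the pDONR (red) and pSKB (blue) lists. Points are medians over sites and bars run from the lower to the upper quartile. Members lie highest, with medians of 0.63 and 0.41, and sites positive in ES or HB alone lie below 0.

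Members with more positive sets passed 2-fold in the pDONR lists more often, with 1 added to both means. The share with a 2-fold higher pDONR level was 16.2% at members with 2 sets, 34.7% with 3 and 53.8% with 4 or more. It was 37.9% at members positive in both HE1 and HE2, 16.3% in HE1 alone and 11.8% in HE2 alone. These shares are a description, as the rule used the sets and a member at low CPM can hardly pass with 1 added. Whether the shares differ at equal CPM was not tested. At the Cttnbp2nl member the pDONR lists held 40.1 CPM in HE1 and 21.1 in HE2, against 2.05 in ES, 1.12 in HB and 1.36 in HP. The pSKB lists held 55.9 CPM of this member in HP, above the 44.8 in HE1 and 16.7 in HE2, and at most 0.485 in ES and HB. At the Egfl7 member the pDONR lists held 42.1 and 24.1 against 0.758, 12.9 and 6.57, and the pSKB lists held 25.4 and 75.6 against 0.0656, 17.0 and 5.96. Trak1 went the other way in the pDONR lists, with 3.70 and 3.77 CPM in HE1 and HE2 against 5.71, 5.33 and 4.08. The Mdm1 member had 0.178 CPM in ES but between 10.2 and 13.8 in all later lists, and so was present in the HB and HP lists as well.

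Member windows held AP-1 and SOX motif letters more often than other distal sites and CTCF and SP letters less often. The share of 300 bp windows with a match on either strand was counted for 16 motifs, as a description without a test. The window had this length whatever the width of the site, which was 70 to 1597 bp in members. It could thus hold letters outside the cloned fragments or miss letters inside them. AP-1 letters (TGANTCA) were in 27.0% of member windows and 16.1% of all, and SOX letters (ACAATG) in 27.0% and 16.8%. ETS letters (GGAAGT) were in 33.7% and 27.2%, GATA letters (AGATAA) in 22.1% and 18.2%, TEAD letters (GGAATG) in 23.4% and 19.6%, and MEIS letters (TGACAG) in 27.4% and 24.6%. PU.1-type letters (GAGGAAGT, which contain the ETS letters) were in 5.82% and 4.71%, FOX letters (TGTTTAC) in 5.19% and 4.14%, and CREB letters (TGACGTCA) in 0.792% and 0.497%.

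Other motifs were less frequent in members or alike. CTCF letters (AGNGGGC) were in 17.8% of members and 24.5% of all sites, SP letters (GGGCGG) in 6.28% and 11.7%, and KLF letters (CCACCC) in 24.7% and 28.2%. E-box letters (CAGNTG) were in 58.4% and 60.9%, RUNX letters (TGTGGT) in 23.4% and 25.5%, and OCT letters (ATTTGCAT) in 1.36% and 1.63%. The letters GTGGGAA of RBPJ, the DNA-binding partner of Notch, were in 8.11% and 7.96%. Members also had a lower GC content, with a median of 48.7% against 50.7%. Among windows of 40 to 50% GC the shares of members and all sites were 28.9% and 19.1% for AP-1, 30.4% and 21.5% for SOX, and 33.9% and 28.5% for ETS. They were 14.5% and 18.5% for CTCF, and 3.03% and 3.94% for SP. Repeats made up a median of 7.67% of the window in members and in all sites.

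**Figure D5:**
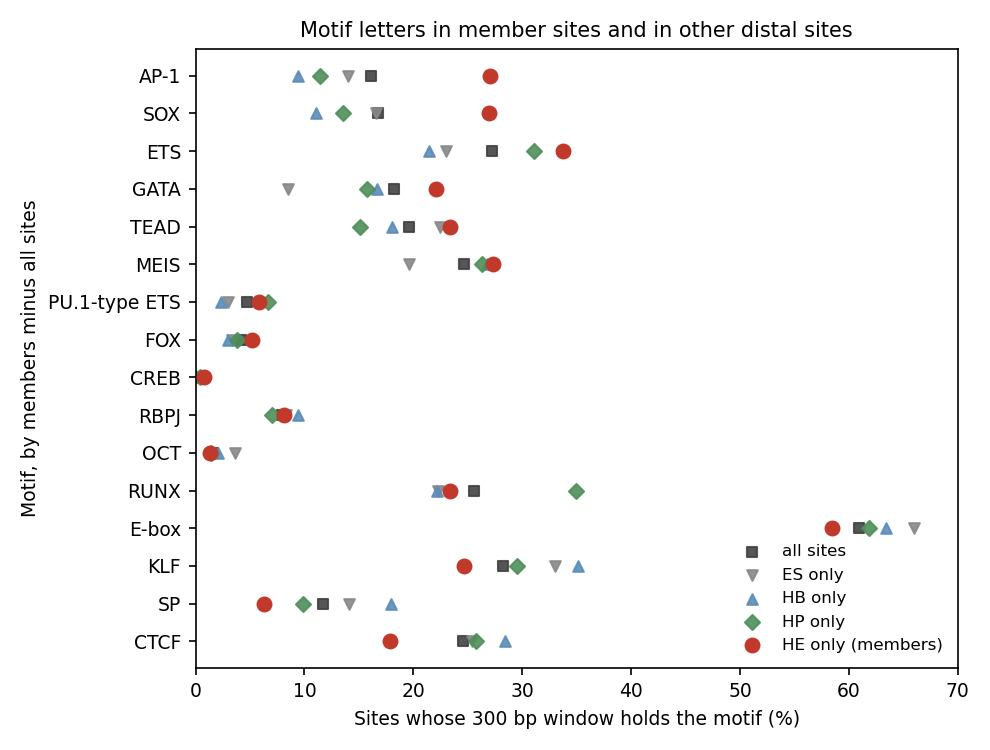
Share of sites whose 300 bp window holds the letters of a motif on either strand (horizontal axis, %), for 16 motifs (vertical axis, ordered by members minus all sites). Red circles are members, dark squares all distal sites, and the other markers sites positive in ES, HB or HP alone. Members lie farthest above all sites for AP-1 and SOX (27.0% each against 16.1% and 16.8%) and farthest below for CTCF.

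AP-1 and SOX letters were less frequent in the stage-restricted sites of other stages than in members, while some other letters were about as frequent. AP-1 letters were in 14.0% of sites positive in ES alone, 9.44% of HB alone and 11.5% of HP alone. SOX letters were in 16.6%, 11.1% and 13.5%, and ETS letters in 23.0%, 21.5% and 31.1%. RUNX letters reached 34.9% in HP alone, against 22.2% in ES alone and 22.2% in HB alone. OCT letters, bound by the pluripotency factor OCT4, were in 3.60% of sites positive in ES alone.

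Within the members, the letters differed between HE1 and HE2. Members positive in HE2 alone held RUNX letters in 35.0% of windows, close to the value for HP alone, and members positive in HE1 alone in 19.7%. The reverse held for AP-1 letters, with 18.1% in HE2 alone and 26.7% in HE1 alone. TEAD letters were in 18.4% and 27.0%, and SOX letters in 19.0% and 27.6%. Members positive at both stages had 22.7% with RUNX, 28.7% with AP-1, 22.9% with TEAD and 28.1% with SOX letters. AP-1 and TEAD letters occurred in the same window at 7.60% of members positive in HE1 alone, 4.58% in HE2 alone and 3.49% of all sites. These subgroups were formed from the positive sets, which differ in depth between HE1 and HE2, and the shares were not tested against each other.

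The share with AP-1 and SOX letters also grew with the number of sets. AP-1 letters were in 24.8%, 28.3% and 30.5% of members with 2, 3 and 4 or more sets, and SOX letters in 24.8%, 27.7% and 30.9%. At sites just outside the rule AP-1 and SOX letters were in 20.4% and 22.8% of those with 1 HE set, and in 19.9% and 17.0% of those with 2 or more HE sets and 1 other set. The median widths of these outside sites were 202 and 427 bp, and that of members with 2 sets 274 bp. The part of site width in these shares was not tested. Members with 2-fold more cloned HE chromatin had SOX letters in 34.1% of windows, against 23.9% of the rest. At least 3 of the AP-1, SOX, ETS, GATA, TEAD and RUNX letters were in 21.1% of members with 4 or more sets and 11.2% of all sites, and none of them in 13.7% and 26.1%.

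By position, members resembled other distal sites and lay farther from genes. The midpoint of 3674 members (47.7%) was intergenic and that of 3724 (48.4%) in an intron of a protein-coding gene, with 203 in untranslated and 101 (1.31%) in coding exons. Over all sites 47.6% were intergenic, 45.9% intronic and 3.03% in coding exons. The median distance to the nearest protein-coding transcription start was 22460.5 bp for members and 16625 bp for all sites. More members lay over 100 kb from any start, 16.5% against 12.4%, than sites positive in ES alone (10.3%), HB alone (13.4%) or HP alone (8.20%).

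Genes with the most members within 100 kb of a start were led by Bcar3, an adaptor of integrin signalling, with 12 of 34 distal sites, and Ksr1, a scaffold of the MAP kinase cascade, with 12 of 52. Palld, which encodes the actin-binding protein palladin, had 10 of 34. The collagen IV genes Col4a1 and Col4a2, which lie side by side and form vessel basement membrane, had 9 of 31 and 9 of 43 in overlapping windows. Filip1l (9 of 23), Irf2bp2 (9 of 25), Mpzl1 (9 of 25) and Nav2 (9 of 37) followed. In these windows members made up between 20.9% and 39.1% of the sites, and sites positive in ES, HB or HP alone numbered at most 2 each. Such sites were also rare over all 58916 distal sites, where 1196 were positive in ES alone, 1357 in HB alone and 768 in HP alone. Whether they were fewer near these genes than elsewhere was not tested. The genes were picked for their number of members, so the shares of members are a description.

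Near the genes of 8 lists, for this tissue and for other programmes such as pluripotency, members made up a smaller share of the distal sites than the 13.1% over all sites. They made up 36 of 305 sites (11.8%) within 100 kb of 20 endothelial genes and 27 of 218 (12.4%) near 17 Notch, SoxF and arterial genes. Near 22 blood specification factors they were 43 of 361 (11.9%), near 19 AP-1 and Hippo pathway genes 32 of 285 (11.2%), and near 18 BMP and TGF-beta pathway genes 33 of 276 (12%). Near 23 blood progenitor and myeloid genes they were 25 of 245 (10.2%), near 12 pluripotency genes 14 of 142 (9.86%) and near 14 mesoderm and cardiac genes 16 of 162 (9.88%). No list was tested.

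Single loci of these lists differed in how many members they held and in how many sets these members were positive. Near endothelial genes, Plvap, a component of endothelial diaphragms, had 6 members of 20 sites and Kdr, the VEGF receptor FLK1, had 4 of 17, whereas Tie1 had 0 of 10, Icam2 0 of 12, Mmrn2 0 of 8, Flt1 1 of 19 and Pecam1 2 of 31. The member 5793 bp from Cdh5, which encodes VE-cadherin, held 5, 10 and 1 distinct positive fragments in HE1 of replicates 1, 2 and 5 and 5, 4 and 5 in HE2 of replicates 1 to 3. Its pDONR level was 19.1 CPM in HE1 and 11.6 in HE2, and between 1.12 and 3.19 in ES, HB and HP. Sox7 and Sox18, SoxF factors of vessel formation, had 6 members of 18 sites and 2 of 12, and Sox17, of the same family, 0 of 8. The Sox18 member at 1985 bp held 6, 3 and 1 fragments in HE1 of replicates 1, 2 and 4, and 4 and 2 in HE2 of replicates 1 and 2. The Sox7 member, 71587 bp away in an intron of Rp1l1, held 2 and 4 in HE1 of replicates 1 and 2, and 4, 2 and 3 in HE2 of replicates 1 to 3. Without the libraries that share fragments, the Sox18 and Sox7 members were positive in 4 sets each.

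Among blood specification factors, Ets1 had 7 members of 29 sites and Mecom, a zinc-finger factor of blood stem cells, 6 of 18, whereas Tal1 had 0 of 13 and Runx1 2 of 24. Both printed Ets1 members were positive in the 4 sets of replicates 1 and 2 alone. The one 21712 bp from the start held 3 and 2 fragments in HE1 and 8 and 5 in HE2, and the one at 53483 bp held 4 and 4 in HE1 and 6 and 2 in HE2. The Mecom member, 34053 bp from a start and intronic, held 3 and 2 fragments in HE1 of replicates 1 and 2, and 1 in HE2 of each of replicates 1 to 3. Its pDONR level was 1.50 CPM in HE1, 1.16 in HE2 and 0 in the ES, HB and HP lists, where a count of 0 allows up to 0.134, 0.0958 and 0.136 CPM (3 counts, counting error only). In the pSKB lists it had 0.407 CPM in HE1, 0.0485 in HB and 0 in the others.

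Signalling genes were represented by members near Id3, Tgfb1 and Smad7. The Id3 member at 23200 bp held 3, 4 and 1 fragments in HE1 of replicates 1, 2 and 5, and 5, 2 and 2 in HE2 of replicates 1 to 3. The Tgfb1 member at 15822 bp from this ligand gene held 8 and 4 in HE1, and 9, 5 and 1 in HE2 of replicates 1 to 3. Its nearest start was that of Ccdc97, at 7866 bp. Near AP-1 and Hippo genes, members lay at 17373 bp from Fos (10 and 8 fragments in HE1 and 6 and 3 in HE2 of replicates 1 and 2), at 3964 bp from Tead4 (8 fragments) and at 69090 bp from Atf3 (5 fragments). The Atf3 member lay nearer to the start of Nenf, at 31065 bp. Wwtr1, which encodes the Hippo effector TAZ, had 5 members of 11 sites, whereas Yap1, its paralogue, had 0 of 11, Tead3 0 of 25 and Lats1 0 of 5.

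Members also lay near genes of other programmes. In the blood progenitor list, a member 38310 bp from Epor, the erythropoietin receptor gene, held 34 distinct positive fragments in 6 sets. It lay in an intron of Tmem205, 2065 bp from the start of that gene. The pDONR lists of HE1, HE2 and HP held 22.4, 16.6 and 17.1 CPM of this member, and the pSKB lists 23.3, 11.5 and 1.71 CPM. Members also lay 79976 bp from Kit, a receptor of blood progenitors, and 73083 bp from Coro1a, with 5 and 6 fragments. The Coro1a member was in an intron of Nupr1, 1134 bp from the start of that gene. In the mesoderm and cardiac list, members lay 1552 bp from Gata4 and 62482 bp from Hand1, both cardiac transcription factor genes, and 88811 bp from Pdgfra. The start nearest to the Pdgfra member was that of Gsx2, at 12120 bp. In the pluripotency list, members lay 11029 bp from Fgf4, 83994 bp from Lin28a and 40879 bp from Tbx3. The start nearest to the Lin28a member was that of Rps6ka1, at 37620 bp. The Lin28a member had no fragment in any Negative library and at most 0.331 CPM in a pDONR list, the lowest pDONR level among the members named here.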

How the data were processed

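Per the labels and the methods, the authors trimmed reads with Trim Galore, mapped them to mm10 with Bowtie2, kept uniquely mapped pairs with SAMtools, wrote each pair as an interval with bedtools and removed duplicates. Sorted-cell lists were then filtered against HM-1 control fragments, plasmid fragments and open chromatin peaks, and split into distal and promoter fragments. No source used here says whether the peak filter was applied per stage. The authors deposited sorted-cell lists as the start and end of distinct fragments without values, and plasmid and control lists with a whole-number count per fragment, taken here as its reads since the column is not named. A sorted library listed 126 to 45186 distal fragments and a plasmid list held 15238561 to 33263313 reads.

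Starts of the sorted lists were moved by 1 bp, after which 83.3% of the 395571 distinct distal fragments were identical to a plasmid fragment (1.98% as deposited). Sites were merged intervals, and their coordinates are counted from 1. Genes were those of GENCODE M21 (GRCm38), and a site was put in the class of its midpoint. Numbers of distinct fragments per site, per 10000 listed fragments and with 1 added, were tested on the log2 scale with limma 3.58.1 in R 4.3.3 at sites with a fragment in at least 4 libraries or sets, with Benjamini-Hochberg adjustment over all sites tested and a threshold of 0.05. The tests were also run on simulated data, with large changes at sites rich in fragments and only counting error between libraries. The simulated sites were those that passed the filter in the real data, and no such filter was set on the simulated numbers. The power of the tests for smaller changes or sparser sites was not examined. Plasmid reads were scaled to CPM per list. Other tables were made with Python 3.11.15, numpy 2.4.6 and pandas 2.3.3.

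The members, gene lists and motifs were chosen with earlier results of these data known. The sites named were the 12 members with the most HE sets (ties by distinct fragments, then by fewer Negative libraries) and up to 3 members per gene list within 100 kb of a start, by sets and then fragments. The genes named by count were the 10 with the most members within 100 kb, of which 1 is not reported here. Alternatives changed the site definition, the rule, the value added, the filters, the weights and the replicates used. Promoter fragments were not used here.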

Additional observations from a re-analysis of the deposited data

How the results depend on the processing

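The number of members was 9922 with bins of 500 bp, 7712 with starts as deposited, 7083 with at least 2 replicate numbers, 7548 with plasmid-identical fragments alone, 7694 without control fragments and 6917 with 2 or more distinct fragments, against 7702. It was 3738 with at least 3 sets, and between 4219 and 7689 with 1 replicate left out, lowest without replicates 2 (4219) and 1 (4425). Leaving out the 4 HE1 libraries that share fragments (6535 members) was chosen after seeing the data. In the test of Negative lists limma called 1 site with voom weights and 1 with means per replicate, neither a member, and 0 in every other setting, 0 to 0 with 1 replicate left out. The test of gates called 0 sites in every setting run. With the replicate block the calls were 0 and 0, with 487 and 601 sites at an unadjusted p under 0.05. In the Negative lists, samples with the same replicate number correlated at a median of 0.131 (35 of 50 pairs over 0.1), and those with other numbers at -0.036 (13 of 200). In the gates the medians were 0.168 (23 of 30 pairs) and -0.048 (13 of 120). Same-numbered samples thus shared some deviation, which the replicate block took in and the main fits did not. The share of members in an HE Negative list was 31.6% to 68.7% with 1 replicate left out, lowest without replicate 1, and 38.3% without 2 HE1 libraries, against 29.6% of all sites. The share in an ES, HB or HP list was 3.45% to 5.44% with 1 replicate left out, lowest without replicates 1 (3.45%) and 2 (3.71%). At 4-fold, 3.49% of members (all sites 0.939%) were higher in the HE pDONR lists and 11.4% (5.09%) in pSKB, and with 0.25 added 55.2% (19.8%) and 48.2% (24.6%). In windows of 200 bp the difference between members and all sites in RBPJ letters was -0.04 percentage points, against 0.16 in windows of 300 bp. The other 15 motif differences kept their sign there, and all 16 did among windows of 40 to 50% GC, chosen after seeing the data. The shallow lists of replicates 3 to 5 limit what can be said of absence from any stage.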

Other observations

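Members far from genes held SOX, AP-1, ETS and GATA letters more often than members near them. The 1269 members over 100 kb from any transcription start held SOX letters in 32.6% of windows, AP-1 letters in 30.2%, ETS letters in 37.2% and GATA letters in 26.6%. The 2373 members within 10 kb of a start held them in 25.5%, 24.4%, 33.2% and 19.5%. Lower shares far from than near a start were found for 7 of 16 motifs: KLF with 19.3% and 28.2%, SP with 3.07% and 7.67%, CTCF with 15.5% and 21.3%, CREB with 0.158% and 0.885%, RUNX with 22.5% and 23.1%, E-box with 57.7% and 58.6%, and RBPJ with 8.04% and 8.64%. The median GC content was 46.7% in the far and 50.3% in the near members. The share with 2-fold more cloned HE chromatin was 29.5% in the far and 29.7% in the near members, and the median log2 ratio 0.66 and 0.61. Members in no Negative library held AP-1 letters in 23.5% and SOX letters in 23.8% of windows, against 28.9% and 28.6% of members listed in an HE Negative library. These shares are descriptions without a test, and the near and far shares of all sites were not computed.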
